A study of Mus musculus with 72 samples.

Results

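A set of 10 genes that mark or arm the inner lining of blood vessels was followed in liver and lung of irradiated mice. They were Pecam1, Cdh5, Kdr, Tek, Tie1, Vwf, Selp, Sele, Icam1 and Vcam1, and they were found by matching the RefSeq accession that each array probe carries to a gene symbol. By this match they had 15 of the 56605 non-control probes on the array, and were 10 of the 23787 genes that could be named. Another 9009 probes with Ensembl accessions were left unnamed, and any probe of the 10 genes among them was not read. Female C57BL/6 J mice aged 6 to 8 weeks received one total-body exposure to X-rays at 5 dose levels (1, 2 and 4 Gy, then 8 and 12 Gy), and the 0 Gy controls were sham irradiated. RNA was taken 48 h later from liver and lung, with 3 mice per dose in each tissue, which gave 36 one-colour Agilent arrays and 18 per tissue. No transgene, deletion or drug was part of any group. Whole tissue was measured, so that fewer endothelial cells and less RNA per endothelial cell cannot be told apart in any value given here.

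Endothelial cells hold one another through junction proteins such as VE-cadherin and PECAM-1, and they sense growth factors through the VEGF receptor VEGFR2 and the angiopoietin receptor TIE2 with its partner TIE1. Resting endothelium stores von Willebrand factor and P-selectin in the same granules. Inflamed endothelium displays the selectins, on which leukocytes roll, and then ICAM-1 and VCAM-1, to which leukocyte integrins bind. In the liver the sinusoids have a specialised, fenestrated endothelium, and the lung holds one of the densest capillary beds of the body.

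The genes lie apart on the mouse genome (GRCm38.p6) except for the selectins, with Sele at chr1:164039614-164058487 and Selp at chr1:164115264-164150026. Icam1 is at chr9:21015940-21028814, Vcam1 at chr3:116110020-116129688 and Tek at chr4:94739086-94874976. RefSeq promoter windows of 250 bases before to 50 bases after a gene's start were at hand for 6 of the 10 genes. The start used for the Tek window lies downstream of the first base of the gene given above. The 3 windows below are printed because, by their brightest probes, Icam1 rose with dose in both tissues, Selp rose in lung and Tek fell in both. Capitals mark the core GGAA of the motif that ETS transcription factors bind, on either strand (TTCC on the other). These factors are known regulators of endothelial genes.
Icam1, chr9:21015690-21015989, plus strand: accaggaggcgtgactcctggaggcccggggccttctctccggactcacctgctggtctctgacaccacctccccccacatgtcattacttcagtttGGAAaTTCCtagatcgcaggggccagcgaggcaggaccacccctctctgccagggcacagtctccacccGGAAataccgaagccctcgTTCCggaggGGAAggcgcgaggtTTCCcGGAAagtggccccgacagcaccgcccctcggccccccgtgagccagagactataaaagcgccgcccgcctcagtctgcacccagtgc
Selp, chr1:164115014-164115313, plus strand: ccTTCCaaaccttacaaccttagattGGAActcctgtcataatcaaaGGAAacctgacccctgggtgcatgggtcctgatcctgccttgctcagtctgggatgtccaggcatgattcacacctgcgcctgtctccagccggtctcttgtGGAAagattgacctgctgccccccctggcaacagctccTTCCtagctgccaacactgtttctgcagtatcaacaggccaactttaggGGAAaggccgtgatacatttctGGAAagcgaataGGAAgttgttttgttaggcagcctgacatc
Tek, chr4:94739039-94739338, plus strand: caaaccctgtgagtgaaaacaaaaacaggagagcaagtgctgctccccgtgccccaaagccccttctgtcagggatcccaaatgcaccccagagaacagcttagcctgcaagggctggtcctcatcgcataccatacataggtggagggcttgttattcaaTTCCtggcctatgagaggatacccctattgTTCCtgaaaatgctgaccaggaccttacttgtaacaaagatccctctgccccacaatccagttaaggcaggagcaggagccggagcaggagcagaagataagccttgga
The core was found 7 times in the Icam1 window, 8 times in the Selp window and 2 times in the Tek window. It is common, since 96.0% of the 32851 windows of the same length in the table held it, with a median of 3 matches. The kappa-B consensus, searched on both strands, was in none of the 3 printed windows and in 8.46% of all windows. The pattern used for it starts with GGG. A sequence without that start was not counted, and the Icam1 match in the next sentence lacks it. The Icam1 window holds 1 match to GGAANTTCC, which overlaps marked cores, was looked for after the Icam1 sequence had been read, and occurs in 0.928% of all windows. A match is a description of letters and not of binding.

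Intensities below are log2 values after background correction and quantile normalization within a tissue, and each gene is given by its brightest probe unless another is named. A gene is said to rise or fall only where limma gave an adjusted p below 0.05 over all probes tested. The dose trend is the log2 change that a straight line in dose gives over 12 Gy. Statements that groups did not overlap describe 3 arrays per group, and the share of all probes that did so was not counted. The share of spots well above background was 46.1% to 54.0% over the liver arrays and 54.1% to 64.0% over the lung arrays. The arrays lay on 5 slides that overlap the doses only in part. Liver at 0 and 1 Gy with 2 Gy mice 3 and 13 lay on slide 1. Slide 2 held liver 2 Gy mouse 23, all of 4 and 8 Gy and 12 Gy mouse 6, and slide 3 held liver 12 Gy mice 16 and 26 with lung at 0 and 1 Gy. Lung at 2 and 4 Gy with 8 Gy mice 5 and 15 lay on slide 4, and lung 8 Gy mouse 25 with all of 12 Gy lay on slide 5. On slide 5 between 54.1% and 54.8% of spots were well above background, against 59.2% to 64.0% on the other 14 lung arrays. In lung, slide and dose cannot be told apart for 2 to 12 Gy against 0 Gy, since no dose joins slide 3 to slides 4 and 5. With slide as a term, none of the 10 genes passed in a dose comparison of liver or in either tissue's trend, and the trends that passed are given below with that value. The mean of 8 hepatocyte markers was 17.70 to 17.86 on liver arrays, and the mean of 8 lung epithelial markers was 16.28 to 16.68 on lung arrays. The same hepatocyte markers were at 12.30 on the lung array of 4 Gy mouse 24 and at 6.94 to 10.27 on the other lung arrays, and the lung epithelial markers were at 6.32 to 8.01 in liver. Without that lung array only the Selp call at 8 Gy was lost among the lung calls below. Cdkn1a, a p53 target and cell cycle inhibitor, rose 80.2-fold in liver and 12.5-fold in lung at 12 Gy (adjusted p = 2.32e-09 and 1.93e-08). Cdkn1a, Phlda3 and Eda2r, taken as 3 dose check genes, all passed on the trend of each tissue. With slide as a term 1 of these 3 passed in liver and 0 in lung.

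**Figure D1:**
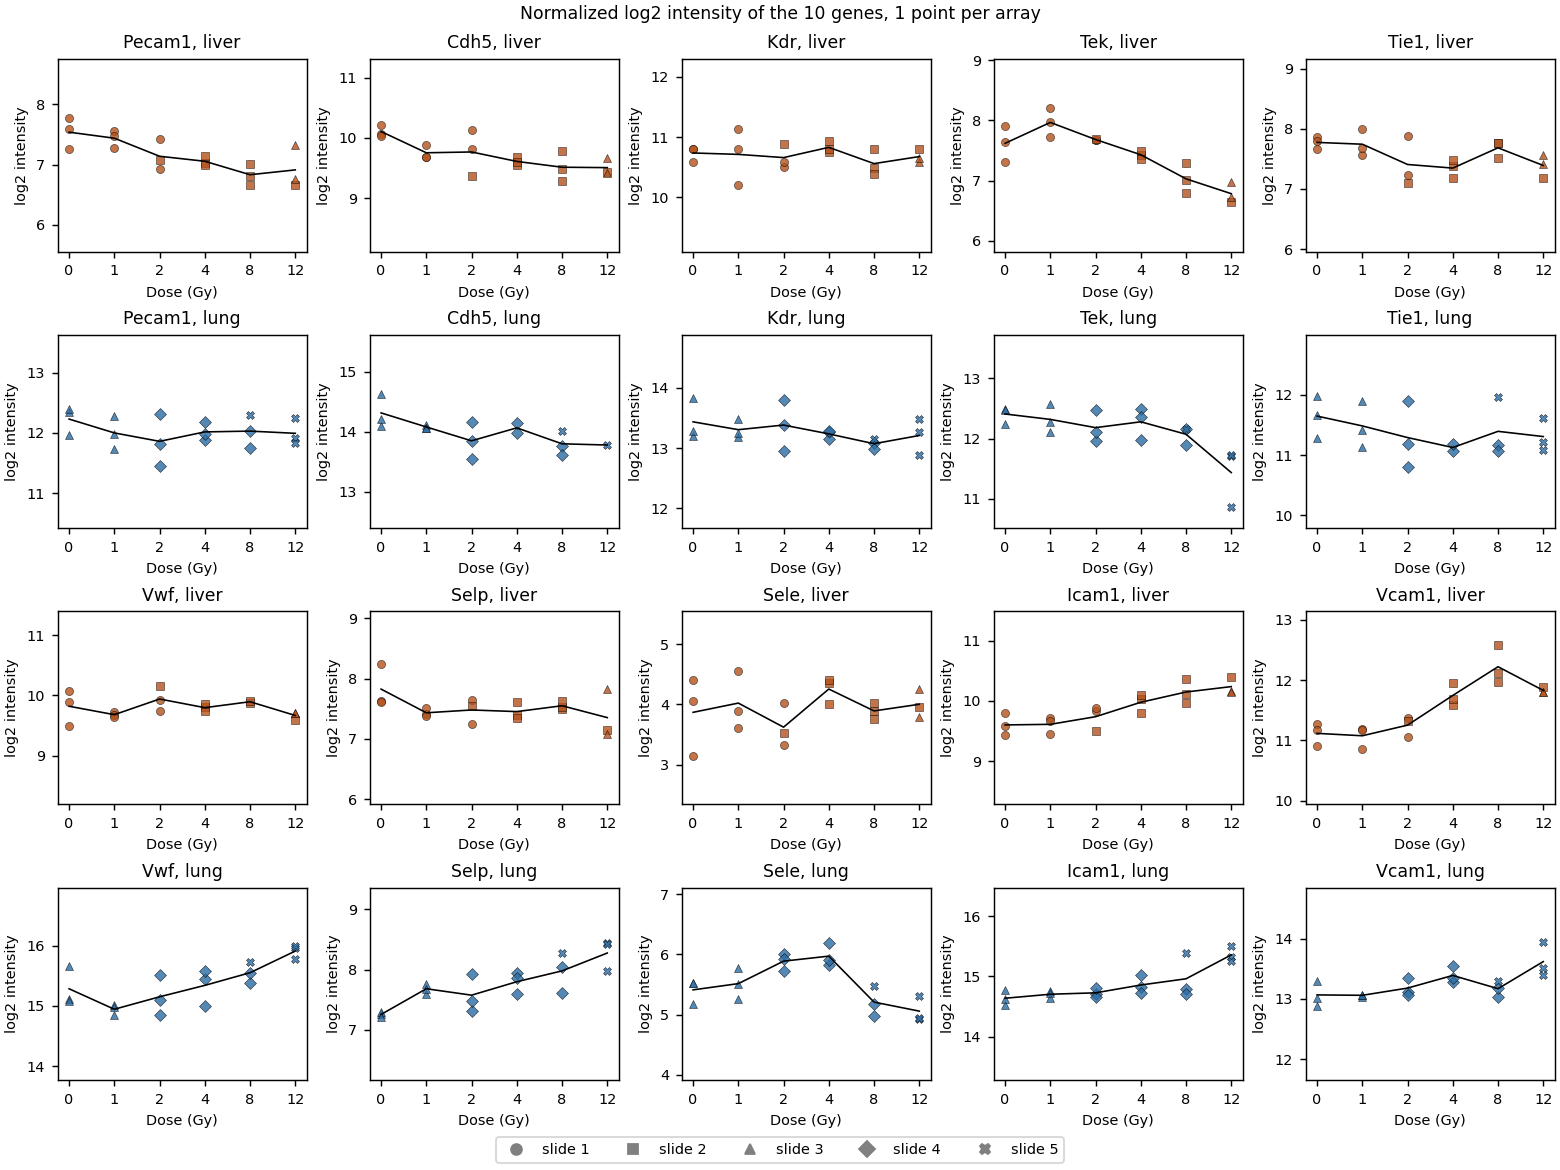
Normalized log2 intensity (vertical axis, the same span in every panel) against dose in Gy (horizontal axis, doses evenly spaced) for the brightest probe of each gene, with 1 point per array, marker shape for the slide and a line through the dose means. Tek runs down and Icam1 and Vcam1 run up toward high dose in liver, and the lung 12 Gy points all come from slide 5.

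Without irradiation, all 10 genes differed between lung and liver by their brightest probes, and 9 were higher in lung. Vwf, the clotting protein that endothelium stores, had the largest difference among them. On arrays normalized together, Vwf was 15.10 ± 0.30 in lung and 10.36 ± 0.28 in liver (log2, SD, n = 3), which is 26.7-fold (adjusted p = 2.65e-19). Icam1, the ligand of leukocyte beta-2 integrins, was 20.7-fold higher in lung (log2 difference 4.37, SE 0.15, adjusted p = 4.2e-20). The junction genes Cdh5 and Pecam1 were 12.0-fold and 11.9-fold higher, at log2 differences of 3.58 with SEs of 0.18 and 0.22. Among the receptors, Tek was 13.0-fold, Tie1 6.55-fold and Kdr 4.07-fold higher in lung, so that Kdr, the VEGFR2 gene, had the smallest difference of these 3. Vcam1, the ligand of the integrin VLA-4, was 2.36-fold higher. Of all 47376 probes tested, 26% were higher in lung and 26.8% were higher in liver (adjusted p below 0.05). The median over all probes was -0.05 here and ran from -0.56 to 0.71 under other scalings and settings, so differences near that size depend on the scaling.

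The selectins were less plain. Sele, which encodes the E-selectin of activated endothelium, was well above background on 0 of 18 liver arrays and on 12 of 18 lung arrays. At 0 Gy it was at least 1.46-fold higher in lung, where 2 of 3 arrays were above background (adjusted p = 0.00137). The 3 probes of Selp, the P-selectin gene, disagreed. The brightest was lower in lung, at 6.57 ± 0.04 against 8.52 ± 0.34 in liver (SD, n = 3, adjusted p = 9.42e-10). Probe 2 did not pass, with a log2 difference of 0.28 and a 95% interval from -0.12 to 0.68. Probe 3, above background on all 3 lung arrays and on no liver array at 0 Gy, was at least 2.01-fold higher in lung (adjusted p = 2.36e-05). The direction for Selp between tissues therefore rests on the probe chosen. Sele no longer passed with slide as a term (adjusted p = 0.189), and each of the other 9 genes still did.

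**Figure D2:**
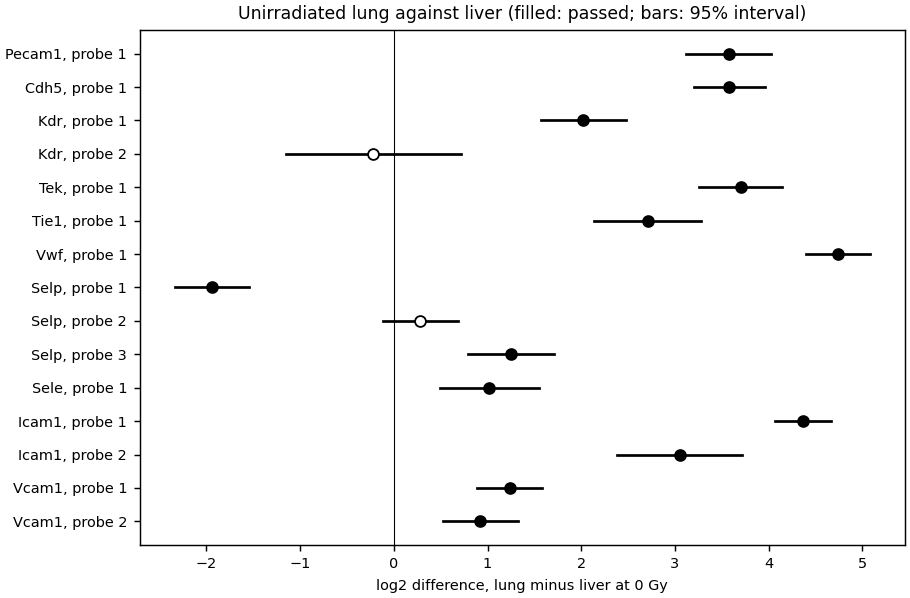
Log2 difference between unirradiated lung and liver (horizontal axis) for each of the 15 probes, with probe 1 the brightest of a gene, bars for the 95% interval and filled points for an adjusted p below 0.05. Every probe of the junction, receptor and immunoglobulin adhesion genes lies right of 0 except the second Kdr probe, and the 3 Selp probes lie on both sides.

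In liver, by brightest probes, Tek and Cdh5 fell and Icam1 and Vcam1 rose at both 8 and 12 Gy, and Pecam1 fell at 8 Gy. Kdr, Tie1, Vwf and Selp passed at neither dose. No gene passed at 1, 2 or 4 Gy, where 0.0417%, 0.461% and 3.31% of all 38362 probes did. The number with an unadjusted p under 0.05 was 0, 1 and 5 of 9 genes tested at these doses, against 2716, 4528 and 6946 of the 38362 probes. At 8 Gy, 2 of 9 rose and 3 fell, against 4.95% of all probes in each direction, that is 1900 and 1898 probes, or 2812 and 1481 with each array's 75th percentile as the scale. At 12 Gy, 2 rose and 2 fell, against 2.91% and 4.1% of all probes. On the dose trend 2 rose and 2 fell, against 4.04% and 5.47%. Sele was not tested in liver, being at background on every array.

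Tek, which encodes the angiopoietin receptor TIE2, had the largest trend of the genes in liver. It was 7.65, 7.31 and 7.90 at 0 Gy, 7.29, 6.79 and 7.01 at 8 Gy and 6.65, 6.72 and 6.98 at 12 Gy. Both high doses lay wholly below 0 Gy, while the 3 values at 1 Gy, 7.72 to 8.21, did not. The fold change was 0.665 at 8 Gy and 0.561 at 12 Gy (adjusted p = 0.0387 and 0.00725), and the trend was -1.07 (SE 0.15, adjusted p = 0.000195). With slide as a term the trend was -1.10 (adjusted p = 0.133) and the changes at 8 and 12 Gy were -0.60 and -0.98 (adjusted p = 0.406 and 0.262), and within slide 2 the mean was 7.43 at 4 Gy and 7.03 at 8 Gy. The call at 8 Gy was lost on leaving out any of 6 arrays.

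Pecam1, a homophilic junction protein shared with platelets and leukocytes, was 7.77, 7.26 and 7.59 at 0 Gy and 7.01, 6.67 and 6.82 at 8 Gy. The 8 Gy values lay wholly below the controls, and at 12 Gy, with 6.66, 6.76 and 7.32, the groups overlapped. Pecam1 fell to 0.612-fold at 8 Gy (adjusted p = 0.0274) and by 0.62 on the log2 scale over 12 Gy (SE 0.16, adjusted p = 0.0195), while at 12 Gy itself it did not pass (adjusted p = 0.0556). The trend was -0.66 with slide as a term (adjusted p = 0.339) and the 8 Gy change -0.61 (adjusted p = 0.425). The trend did not pass without 12 Gy mouse 6 (adjusted p = 0.0657), and the 8 Gy call was lost without 0 Gy mouse 1 or 21 or without 8 Gy mouse 15 or 25.

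Cdh5, the VE-cadherin gene, was 10.07, 10.22 and 10.03 at 0 Gy and 9.44, 9.42 and 9.66 at 12 Gy. Every mouse at 1, 4, 8 and 12 Gy lay below every control, though Cdh5 did not pass at 1 or 4 Gy (adjusted p = 0.718 and 0.132). Cdh5 fell to 0.664-fold at 8 Gy and 0.66-fold at 12 Gy (adjusted p = 0.0412 and 0.0476), and its trend did not pass (-0.47, adjusted p = 0.0508). Within slide 1 the mean was 10.11 at 0 Gy, 9.75 at 1 Gy and 9.97 in the 2 mice at 2 Gy. With slide as a term the 8 Gy change was 0.02 (adjusted p = 0.985) and the 12 Gy change -0.06 (adjusted p = 0.961). The calls were lost on leaving out any of 9 arrays at 8 Gy and any of 14 at 12 Gy.

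Kdr, Tie1 and Vwf did not pass in liver at any dose. Their trends were -0.10 (95% interval -0.41 to 0.22), -0.22 (-0.58 to 0.14) and -0.09 (-0.35 to 0.17). A second, dim Kdr probe was above background on 0 liver arrays and 1 lung array. Selp did not pass either, at -0.48 for 12 Gy (adjusted p = 0.187).

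Vcam1 and Icam1, the integrin ligands, rose in liver by their brightest probes. Vcam1 was 11.27, 10.91 and 11.17 at 0 Gy, 12.12, 11.97 and 12.58 at 8 Gy and 11.88, 11.80 and 11.81 at 12 Gy. The 4, 8 and 12 Gy mice all lay above all controls, and 8 Gy had the highest mean. The change was 2.15-fold at 8 Gy and 1.64-fold at 12 Gy (adjusted p = 0.00133 and 0.0176), with a trend of 0.97 (SE 0.20, adjusted p = 0.00456). Icam1 was 9.43, 9.79 and 9.58 at 0 Gy, 9.96, 10.12 and 10.36 at 8 Gy and 10.40, 10.16 and 10.15 at 12 Gy, again without overlap from 4 Gy on. It rose 1.46-fold and 1.55-fold (adjusted p = 0.0323 and 0.0175), with a trend of 0.68 (SE 0.12, adjusted p = 0.00127). The trends with slide as a term were 0.79 for Vcam1 (adjusted p = 0.315) and 0.89 for Icam1 (adjusted p = 0.105). In that fit the changes at 8 and 12 Gy were 0.99 and 0.65 for Vcam1 (adjusted p = 0.187 and 0.49) and 0.91 and 1.16 for Icam1 (adjusted p = 0.123 and 0.0811). Within slide 2, Vcam1 had a mean of 11.75 at 4 Gy and 12.22 at 8 Gy, and Icam1 of 9.98 and 10.15. Icam1 did not pass at 12 Gy without 0 Gy mouse 1 or 21 or 12 Gy mouse 6, nor at 8 Gy without those 2 controls or 8 Gy mouse 15 or 25. Vcam1 did not pass at 12 Gy without 0 Gy mouse 11 or 12 Gy mouse 6 or 26.

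The second probes of these genes did not follow. At 12 Gy in liver the second Vcam1 probe was at -0.40 (95% interval -0.74 to -0.06, adjusted p = 0.158) and the second Icam1 probe at 0.07 (-0.59 to 0.72). Both were dimmer, at mean log2 levels of 7.66 and 8.09 against 12.47 and 12.58 over all 36 arrays, and the second Vcam1 probe was above background on all 18 liver arrays. With all probes of a gene averaged, neither gene passed at 12 Gy or on the liver trend, and at 8 Gy Vcam1 passed (0.52, adjusted p = 0.0409) and Icam1 did not (0.11, adjusted p = 0.814).

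**Figure D3:**
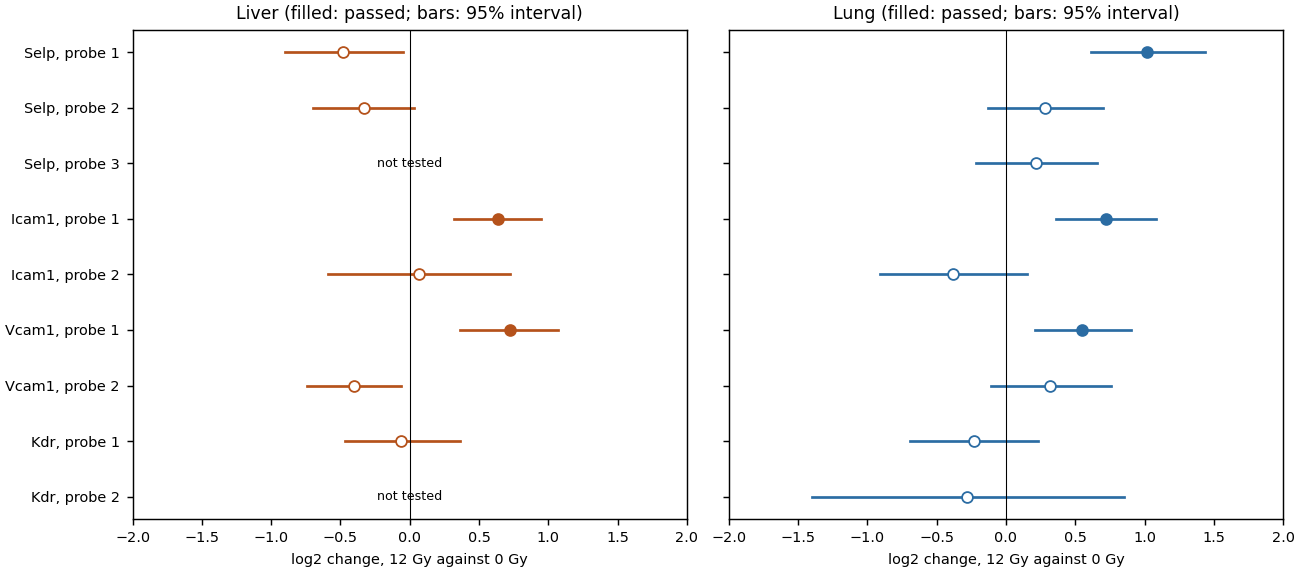
Log2 change at 12 Gy against 0 Gy (horizontal axis) in liver and lung, for each RefSeq-matched probe of the 4 genes with several. Bars give the 95% interval and filled points an adjusted p below 0.05. The filled points are all brightest probes, and the other probes' intervals include 0 apart from the second Vcam1 probe in liver.

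In lung, by brightest probes, Selp, Vwf, Icam1 and Vcam1 rose and Tek fell at 12 Gy. No gene passed at 1, 2 or 4 Gy, where 0.025%, 0.555% and 2.18% of all probes did, and 1, 2 and 2 of the 10 had an unadjusted p under 0.05. Over all probes that number was 2426 and 3371 of 43979 at 1 and 2 Gy and 6122 of 43976 at 4 Gy. At 8 Gy only Selp passed, rising, where 1.68% of all 43979 probes rose and 2.57% fell. At 12 Gy, 4 genes rose and 1 fell, against 13.5% and 7.81% of all probes. None of the 10 passed at 8 or 12 Gy with slide as a random block, the adjusted p at 12 Gy being 0.0527 for Selp, 0.0889 for Tek, 0.116 for Icam1, 0.196 for Vcam1 and 0.256 for Vwf. On the trend 4 rose and 2 fell, against 19.7% and 11%, and with that block each of them but Vcam1 (adjusted p = 0.0765) still passed. Without the 4 arrays of slide 5, no gene passed on the lung trend or at 8 Gy, and 2334 probes in place of 13500 passed on the trend. Each array's 75th percentile as the scale moved the median of all probes at 12 Gy from 0.09 to 0.25 and the share of passing probes that were higher from 63.4% to 75.7%.

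Selp was 7.27, 7.29 and 7.21 at 0 Gy, 7.62, 8.04 and 8.28 at 8 Gy and 7.97, 8.44 and 8.42 at 12 Gy. Every irradiated lung, from 1 Gy on, lay above every control. Selp rose 1.65-fold at 8 Gy and 2.03-fold at 12 Gy (adjusted p = 0.0486 and 0.00247), with a trend of 0.85 (SE 0.16, adjusted p = 0.000714). On slide 3 alone the mean went from 7.26 at 0 Gy to 7.68 at 1 Gy, and on slide 4 from 7.58 at 2 Gy to 7.83 at 8 Gy. On slide 5, the only one with 12 Gy, Selp was at 8.28 in the 8 Gy mouse and at a mean of 8.28 at 12 Gy. With slide as a term the trend was 0.50 (adjusted p = 0.922) and without the slide 5 arrays 0.73 (adjusted p = 0.167). The call at 8 Gy was lost on leaving out any of 13 arrays. Selp probes 2 and 3 had trends of 0.20 and 0.18 and did not pass (adjusted p = 0.382 and 0.482).

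Vwf was 15.66, 15.11 and 15.08 at 0 Gy and 15.96, 15.99 and 15.78 at 12 Gy, with all 12 Gy mice above all controls. At 1 Gy all 3 mice, 15.01, 14.84 and 14.98, lay below the controls. Vwf rose 1.54-fold at 12 Gy (adjusted p = 0.0402) and by a trend of 0.80 (SE 0.17, adjusted p = 0.00186). The trend was 0.48 with slide as a term (adjusted p = 0.94) and 0.53 without the slide 5 arrays (adjusted p = 0.416), and the 12 Gy call was lost on leaving out any of 8 arrays. Platelets and megakaryocytes also carry Vwf and Selp, and the part of these cells in the changes was not tested. Of 13 of their markers, 0 rose and 8 fell on the lung trend, against 19.7% and 11% of all probes, with a median of -0.67. Tubb1, the platelet tubulin, fell by 1.39 on the log2 scale, and the mean of the 13 was 8.65 to 9.60 at 0 Gy and 8.19 to 8.59 at 12 Gy. All 13 were above background on at least 1 lung array, and 1 passed without the slide 5 arrays and 0 with slide as a term. On the liver trend 0 of the 10 tested rose and 0 fell.

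Icam1 in lung was 14.77, 14.52 and 14.62 at 0 Gy and 15.32, 15.50 and 15.25 at 12 Gy, without overlap. At 8 Gy the 2 mice on slide 4 were at 14.79 and 14.70 and the mouse on slide 5 was at 15.39, as high as the 12 Gy mice on that slide. Icam1 rose 1.65-fold at 12 Gy (adjusted p = 0.0079) with a trend of 0.67 (SE 0.13, adjusted p = 0.000861), which was 0.01 with slide as a term (adjusted p = 0.999) and 0.20 without the slide 5 arrays (adjusted p = 0.597). Vcam1 was 13.02, 12.88 and 13.30 at 0 Gy and 13.40, 13.94 and 13.52 at 12 Gy, where it rose 1.47-fold (adjusted p = 0.0249), with a trend of 0.46 (SE 0.14, adjusted p = 0.02). The Vcam1 trend was 0.06 with slide as a term (adjusted p = 0.999) and 0.21 without slide 5 (adjusted p = 0.7), and it did not pass without 12 Gy mouse 16 (adjusted p = 0.113). At 12 Gy Vcam1 did not pass without that mouse or 0 Gy mouse 1 or 11. The second Icam1 probe had a lung trend of -0.54 (adjusted p = 0.0531) and the second Vcam1 probe one of 0.10 (adjusted p = 0.721).

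Tek in lung was 12.50, 12.48 and 12.25 at 0 Gy and 11.71, 10.87 and 11.73 at 12 Gy, with the 8 and 12 Gy mice below all controls. It fell to 0.511-fold at 12 Gy (adjusted p = 0.00828), with a trend of -0.84 (SE 0.19, adjusted p = 0.00245). The trend was -0.74 with slide as a term (adjusted p = 0.855) and -0.47 without slide 5 (adjusted p = 0.356), and within slide 5 the mean was 12.16 in the 8 Gy mouse and 11.44 at 12 Gy. Sele fell on the trend by 0.58 on the log2 scale (SE 0.22, adjusted p = 0.0473), but its values went from 5.53, 5.53 and 5.17 at 0 Gy to 5.82, 5.90 and 6.19 at 4 Gy and 4.92, 4.95 and 5.30 at 12 Gy. The 2 and 4 Gy mice were all above the controls, so a straight line describes Sele poorly. At 12 Gy no array was above background for Sele, against 2 of 3 at 0 Gy. By the means alone 0 Gy was at least 1.17-fold higher, but the groups overlapped and that comparison did not pass (adjusted p = 0.187). The Sele trend was -1.54 with slide as a term (adjusted p = 0.139) and -0.39 without slide 5 (adjusted p = 0.701), and its call was lost on leaving out any of 12 arrays.

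Pecam1, Cdh5, Kdr and Tie1 did not pass in lung at any dose or on the trend, where their values were -0.07 (95% interval -0.44 to 0.30), -0.48 (-0.91 to -0.04), -0.26 (-0.61 to 0.09) and -0.20 (-0.70 to 0.31). Cdh5 had 1 usable spot at 12 Gy and 2 at 4 Gy, the others being marked as outliers by the scanner software, and Tie1 had 2 at 4 Gy.

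**Figure D4:**
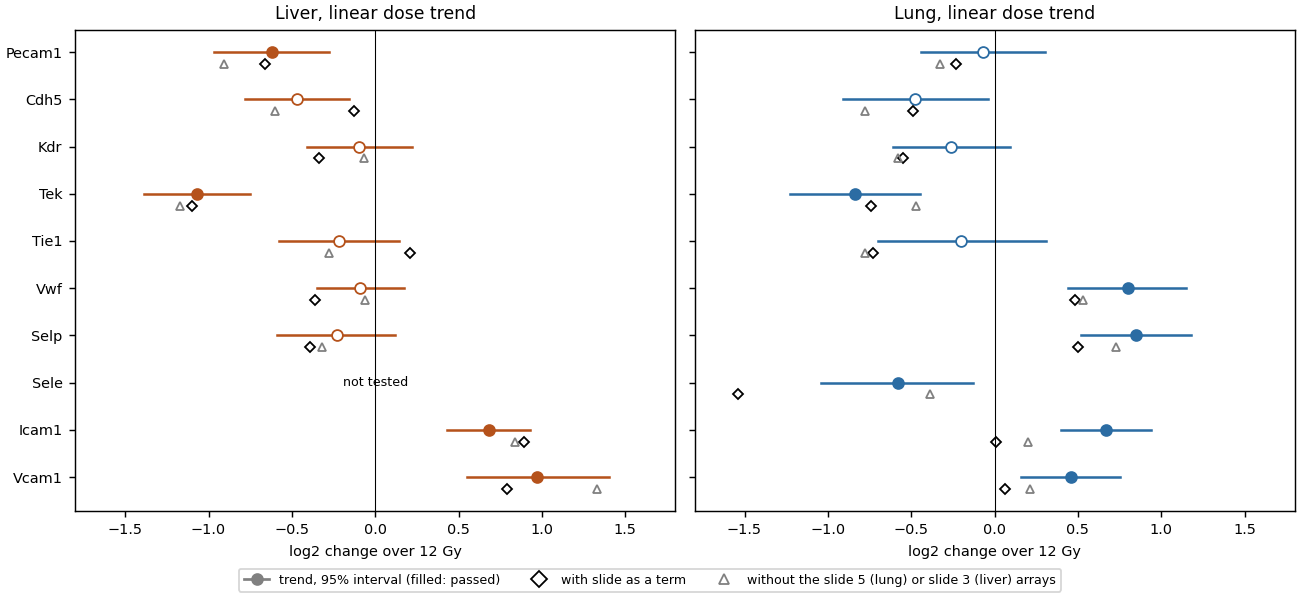
Log2 change over 12 Gy from the linear dose trend (horizontal axis) for the brightest probe of each gene in liver and lung, with bars for the 95% interval and filled circles for an adjusted p below 0.05. Diamonds give the value with slide as a term and triangles the value without the arrays of slide 3 (liver) or slide 5 (lung). In lung the diamonds of Icam1 and Vcam1 lie at 0.01 and 0.06, and those of Tek, Selp, Vwf and Sele lie further from 0. With slide as a term no gene passed on the trend in either tissue.

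The trends differed between tissues for Selp and Vwf alone among the 10 genes, both higher in lung, where 11% of all probes were higher and 5.59% lower. The difference, lung minus liver, was 1.05 for Selp (SE 0.22, adjusted p = 0.0016) and 0.81 for Vwf (SE 0.20, adjusted p = 0.00436). For Tek it was 0.10 (95% interval -0.41 to 0.61), for Icam1 -0.05 (-0.38 to 0.28), for Vcam1 -0.34 (-0.84 to 0.15) and for Pecam1 0.53 (0.01 to 1.05, adjusted p = 0.159). Neither Selp nor Vwf passed with slide as a term (adjusted p = 0.861 and 0.842), nor without the slide 5 arrays (adjusted p = 0.201 and 0.487). Averaged over its 3 probes, Selp did not pass (0.51, adjusted p = 0.0641).

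Other endothelial genes were split in both tissues. The counts of genes that rose and fell on a trend, here and for the lists that follow, stand against 4.04% and 5.47% of all probes in liver and 19.7% and 11% in lung. In liver, 2 of 25 further pan-endothelial genes rose and 8 fell on the trend, with a median of -0.29 against 0.00 over all probes. Clec14a, Cldn5, the tight junction claudin of endothelium, and Tfpi, an inhibitor of tissue factor, fell by 1.19, 0.99 and 0.92 on the log2 scale, and Mmrn2, an endothelial matrix protein, rose by 1.05. Of 10 sinusoidal endothelial genes tested, 1 rose and 5 fell, with a median of -0.65. Lyve1, the hyaluronan receptor, rose by 1.69, and Mrc1, Gpr182 and Fcgr2b fell by 0.86, 0.76 and 0.70. In lung, 8 of the 25 pan-endothelial genes rose and 3 fell, with a median of 0.19 against 0.08 over all probes. Mmrn2 and Flt1, the VEGFR1 gene, rose by 1.20 and 0.67, and the transcription factor genes Sox17 and Fli1 fell by 0.83 and 0.74. Of 10 lung capillary genes, 2 rose and 4 fell, led by Aplnr, the apelin receptor, which fell by 1.71. Without the slide 5 arrays 2 of the 25 and 2 of the 10 passed in lung, and with slide as a term 0 and 1. In liver 0 of the 25 and 1 of the 10 sinusoidal genes passed with slide as a term. Mrc1 and Lyve1 are also made by macrophages.

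Genes of the VEGF and angiopoietin families, not all of them ligands of VEGFR2 or TIE2, were also read. So were the neuropilins, which are VEGF co-receptors and not ligands, and the counter-receptors. Of 8 genes for VEGFs, angiopoietins and neuropilins tested in liver, 1 rose (the neuropilin gene Nrp2, by 0.69) and 0 fell. In lung Pgf and Angptl1 were also tested, and of the 10 genes 5 rose and 0 fell. Vegfd and Angpt2, the TIE2 antagonist, rose by 0.81 and 0.76. None of the 10 passed without the slide 5 arrays. Of 12 genes for leukocyte partners of the selectins, ICAM-1 and VCAM-1, 1 rose and 6 fell in liver and 1 rose and 10 fell in lung. Itga4, the alpha chain of VLA-4, had a trend of -0.94 in liver and -1.08 in lung. Of the 12, 2 passed in liver and 0 in lung with slide as a term, and without slide 5 it was 5 in lung. Of the NF-kappa-B target and cytokine genes, 3 of 14 rose and 3 fell in liver, where Cxcl1 rose by 1.34 and Traf1 fell by 1.13. In lung 2 of 16 rose and 4 fell, Nfkbia, the NF-kappa-B inhibitor, rising by 0.78, while Sod2 fell by 1.21. None of these passed in either tissue with slide as a term.

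Markers of other cells moved with dose in the same tissues. All 8 B cell and all 9 T cell markers fell on the lung trend, with medians of -3.17 and -3.46, and 4 of 7 and 6 of 9 fell in liver. The mean of the T cell markers was 7.27 to 7.51 in liver and 10.10 to 12.18 in lung at 0 Gy, and 6.04 to 6.33 and 6.94 to 7.56 at 12 Gy. In lung the 0 Gy arrays were spread more widely than those at 1 Gy, where this mean was 9.86 to 10.20. Of 11 macrophage markers, a list that includes Fabp1, which hepatocytes also make, 0 rose and 7 fell in liver, and 1 rose and 2 fell in lung. Their mean in liver was 11.15 to 11.32 at 0 Gy and 10.52 to 10.70 at 12 Gy. Of 10 mural cell markers, 0 rose and 3 fell in liver and 2 rose and 0 fell in lung, with means of 7.71 to 7.92 and 7.46 to 7.48 in liver at 0 and 12 Gy. Neutrophil markers had 0 rises in either tissue, with 1 of 8 falling in liver and 3 of 9 in lung. In liver 1 T cell marker and 0 B cell, macrophage, mural and neutrophil markers passed with slide as a term, and 2 T cell, 2 B cell and 0 of the others in lung. Without the slide 5 arrays 8 T cell, 7 B cell and 1 neutrophil marker passed in lung, and 0 macrophage and 0 mural markers. Icam1 and Pecam1 are also made by leukocytes and Vcam1 by macrophages and stromal cells, and the part of these cells in the changes was not tested.

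**Figure D5:**
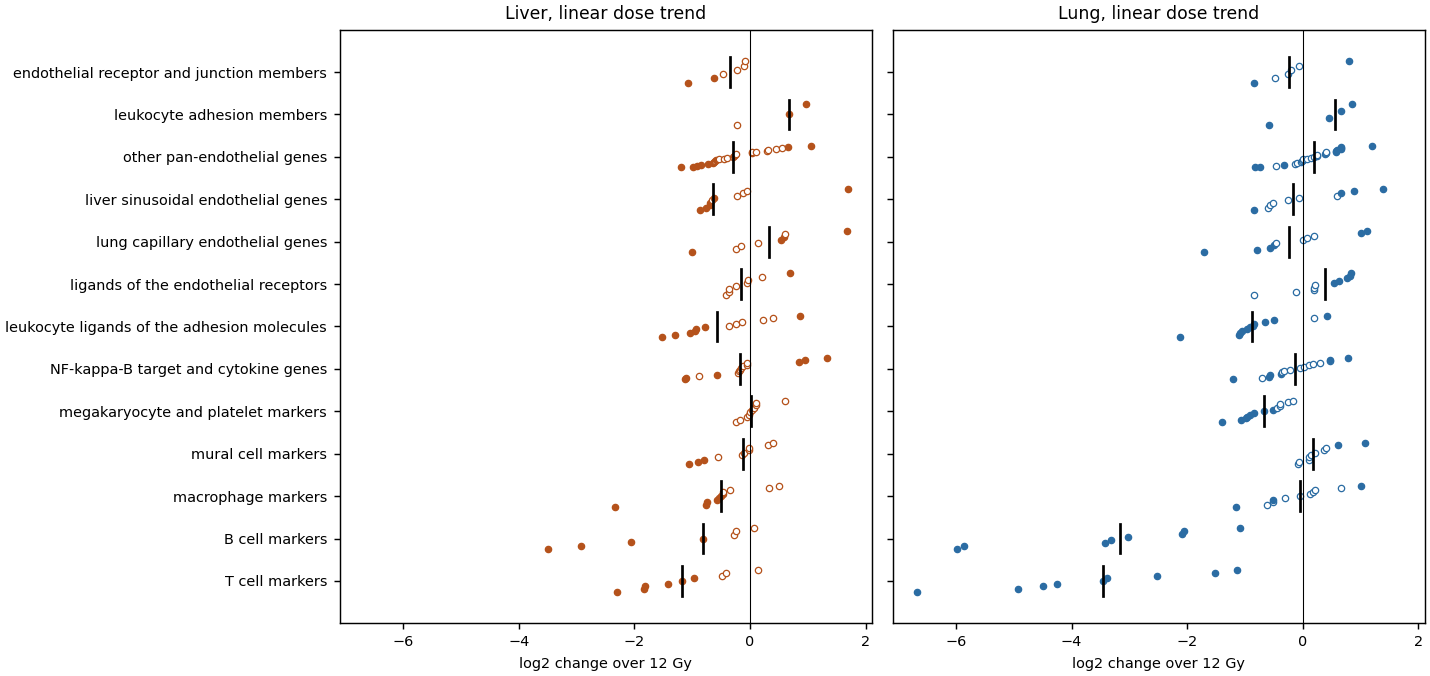
Log2 change over 12 Gy (horizontal axis, the same in both panels) for each tested gene of 13 lists, 1 point per gene, with filled points for an adjusted p below 0.05 and a bar at the list's median. B and T cell markers lie far left in lung, the endothelial lists lie on both sides of 0 in both tissues, and the platelet markers lie left of 0 in lung.

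The genes whose level followed the mean standardized level of Pecam1, Cdh5, Kdr, Tek and Tie1 most closely over 18 arrays were not shared by the tissues. In liver they were Naaa, Cyb561a3, Tcf21, Tnfaip2 and Tst, with Pearson's r from 0.888 to 0.918 among 12337 genes above background on every array. In lung they were Dll4, the Notch ligand of endothelial tip cells, Ldb1, Fes, Ddah2 and Vasp, with r from 0.79 to 0.863 among 14668. No r was computed where a spot was missing. These arrays share dose, slide and normalization, and the values are a description.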

How the data were processed

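RNA of whole liver and lung was hybridized to one-colour Agilent mouse arrays, 3 mice per dose and tissue. The authors deposited, one scanner table per array with the median pixel intensity of spots and of the surrounding background, made with Agilent Feature Extraction 11.5.1.1, not normalized. They also deposited linear series values, whose making is not stated in the sources used here, and miRNA arrays, which were not used here. In R 4.3.3 with limma 3.58.1, intensities were corrected by normexp (offset 0), control spots dropped and spots marked as outliers set to missing. Intensities were then logged (log2), arrays of a tissue quantile-normalized, and spots of one probe averaged. Arrays of both tissues were normalized together for comparisons between tissues. A probe was above background where at least 0.5 of its spots were well above it, and a probe had to reach this on 1 or more arrays to be tested.

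A limma model compared each of 5 doses with 0 Gy, and a second fitted a linear trend in dose. The p-values were adjusted by the Benjamini-Hochberg method over all probes tested, also where only these 10 genes are printed. For a dose comparison they rest on the spread between mice within a group, pooled over all groups of the fit. For a trend they rest on the spread of all arrays around the line. In both limma moderated the spread over all probes. At 4 Gy in lung, 3 probes had no usable spot and were left out. Where a group had no array above background, the fold is a bound against the lowest level above background on each dim array, or the probe's value there if higher. A spot marked as an outlier is missing from the fit. Probes were named through RefSeq accessions (GRCm38.p6), which matched 34566 probes, and 9009 probes with Ensembl accessions were left unnamed. A gene is given by its brightest probe over 36 arrays. Of each list at most 4 genes that passed a trend, those with the largest change, are named, except for a gene that is not reported here, and the 5 genes most like the receptor and junction genes. The members and lists were chosen with earlier results of these data known. The fit was tested on simulated data, and figures were drawn with matplotlib 3.10.9. The number of arrays limits the precision. Slide as a fixed term or random block, other background corrections, scalings, filters and probe rules, and leaving out each array were tried. Leaving out slides 3 or 5 was chosen after seeing the data.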

Additional observations from a re-analysis of the deposited data

Results flagged for a closer look

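Selp and Vwf drew attention because their dose trends differed between lung and liver by a test of the difference itself. The lung trend minus the liver trend, as a log2 change over 12 Gy, was 1.05 for Selp and 0.81 for Vwf, and both kept passing on leaving out any one of the 36 arrays. In lung the trend was 0.85 for Selp and 0.80 for Vwf, and in liver -0.23 and -0.09. Selp probes 2 and 3 gave differences of 0.51 and -0.04, which did not pass (adjusted p = 0.142 and 0.945). All lung 12 Gy arrays lay on slide 5. With slide as a term the differences were 0.85 for Selp and 0.77 for Vwf (adjusted p = 0.861 and 0.842), and without the slide 5 arrays 0.90 and 0.53 (adjusted p = 0.201 and 0.487).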

How the results depend on the processing

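All counts here are of the 10 genes that passed. In liver at 12 Gy, where 4 passed, it was 2 with all probes of a gene averaged, 0 with slide as a fixed term and 1 without the 2 arrays of slide 3. In liver at 4 Gy, where 0 passed, 1 (Vcam1) did with the 75th percentile as the scale, with normexp offset 50 and with the stricter filter on dim probes. In liver at 8 Gy, where 5 passed, it was 3 with the authors' series values, 2 with both tissues fitted together, 1 without a filter on dim probes, 3 with the processed signal, 0 with slide as a fixed term and 1 with slide as a random block. On the liver trend, where 4 passed, it was 2 with probes averaged and 0 with slide as a fixed term. In lung at 12 Gy, where 5 passed, it was 2 with probes averaged and 0 with slide as a random block, under which 1794 of all probes passed. It was 6 with outlier spots kept, with the processed signal and with the series values, where 2 genes fell in place of 1. In lung at 8 Gy, where 1 passed, it was 0 with the 75th percentile, the series values, probes averaged, no filter, the processed signal, slide as a random block, and without the slide 5 arrays. On the lung trend, where 6 passed, it was 0 with slide as a fixed term and 0 without slide 5. It was 7 with outlier spots kept and with the processed signal, where 3 genes fell in place of 2. For the difference of the trends, where 2 passed, it was 1 with probes averaged, 1 with outlier spots kept, 0 with slide as a fixed term and 0 without slide 5. The Cdh5 change in liver at 8 Gy turned to 0.02 with slide as a fixed term. In each case the cause was not tested.

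Leaving out each array in turn gave 0 to 0 genes in liver at 1 and 2 Gy, 0 to 1 at 4 Gy, 1 to 5 at 8 Gy, 1 to 4 at 12 Gy and 3 to 5 on the trend. In lung it gave 0 to 0 at 1, 2 and 4 Gy, 0 to 1 at 8 Gy, 3 to 5 at 12 Gy and 4 to 6 on the trend. It gave 10 to 10 between the tissues at 0 Gy and 2 to 3 for the difference of the trends. Over all probes, slide as a fixed term left 273 of 3798 in liver at 8 Gy, 325 of 2690 at 12 Gy, 108 of 3647 on the liver trend, 134 of 13500 on the lung trend and 0 of 7838 for the difference of the trends. Without slide 5 the last count was 643. The dose changes of lung from 2 Gy on could not be fitted with slide as a fixed term.

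With each array's 75th percentile as the scale, the share of passing probes that were higher was 50.7% in place of 39.5% in liver at 2 Gy, 76.1% in place of 64.1% on the lung trend and 31.9% in place of 49.2% between the tissues. With normexp offset 50 it was 16.7% in place of 45.5% in lung at 1 Gy, where 96 and 11 probes passed. Signal over background limits Sele and the dimmer probes of Kdr and Selp.

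Liver and lung samples share numbers in the labels, which do not say that a number marks one mouse. Deviations of same-numbered samples correlated at -0.14 to 0.252 (median 0.0245) and above 0.1 in 3 of 18 pairs, so the pairing was not used. With the number as a replicate block, 10 genes passed between the tissues at 0 Gy and 2 for the difference of the trends, and 7419 of all probes in place of 7838 for the latter.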
